A study of Mus musculus with 4 samples.

Results

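A set of 8 genes of eicosanoid synthesis was followed through single-nucleus RNA libraries of mouse aortic tissue: Alox5, Alox5ap, Ltc4s, Alox15, Ptgs1, Ptgs2, Ptgis and Ptges. They were taken by symbol, and all 8 were found, each once, among the 32285 gene rows of the count matrices. There were 4 libraries, 1 for each group, and every mouse was ApoE-/- with a CA1 knock-in. In the MTZ-after group, mice ate high-fat food and received methoxazolamide (MTZ, which the series calls an inhibitor of the carbonic anhydrase CA1) once atherosclerosis was present. In the MTZ-simultaneous group the drug and the high-fat food were given together, in the high-fat group the food was given alone, and the untreated group had neither. The labels give no strain background, age, sex, dose, duration or number of aortas per library. No wild-type ApoE group and no group without the knock-in was analysed here. With 1 library per group there is no replicate spread and no test, and a treatment cannot be told apart from the library that carries it. All intervals are 95% intervals that cover counting error only.

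Eicosanoids are signalling lipids made from arachidonic acid, which phospholipases release from membrane phospholipids. Alox5 encodes 5-lipoxygenase, which needs the membrane protein encoded by Alox5ap (FLAP) to make leukotriene A4, and Ltc4s joins leukotriene A4 to glutathione to give leukotriene C4, the parent of the cysteinyl leukotrienes. Alox15 encodes a lipoxygenase that oxygenates arachidonic and linoleic acid, and in mice it is known as a gene of the resident macrophages of the serous cavities and of eosinophils. Ptgs1 and Ptgs2 encode the cyclooxygenases COX-1 and COX-2, which make prostaglandin H2. Ptgis turns prostaglandin H2 into prostacyclin, a vasodilator and platelet inhibitor made by the vessel wall, and Ptges encodes the inducible microsomal synthase of prostaglandin E2. In atherosclerotic vessels, leukotrienes are known mainly as products of leukocytes and prostacyclin as a product of endothelium and smooth muscle.

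The DNA just upstream of 3 of the genes is shown: Alox5 as the first enzyme of the leukotriene branch, and Ptgs1 and Ptgs2 as the cyclooxygenases of the prostanoid branch, whose levels did not move together between libraries. The RefSeq promoter table (build GRCm38.p6) held 5 of the 8 genes, and each line gives the 250 bases before the RefSeq start site, read 5′ to 3′ on the strand of the gene. Capitals mark 2 motifs searched on both strands, the GC box (GGGCGG or CCGCCC) and an ETS-type core (GAGGAA or TTCCTC); they do not overlap in these windows.
Alox5, chr6:116461179-116461428, minus strand: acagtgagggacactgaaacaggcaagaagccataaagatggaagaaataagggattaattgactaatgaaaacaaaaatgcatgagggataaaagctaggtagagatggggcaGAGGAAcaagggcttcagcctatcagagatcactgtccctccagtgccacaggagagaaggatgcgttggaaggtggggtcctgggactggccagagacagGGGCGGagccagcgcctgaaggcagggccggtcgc
Ptgs1, chr2:36230176-36230425, plus strand: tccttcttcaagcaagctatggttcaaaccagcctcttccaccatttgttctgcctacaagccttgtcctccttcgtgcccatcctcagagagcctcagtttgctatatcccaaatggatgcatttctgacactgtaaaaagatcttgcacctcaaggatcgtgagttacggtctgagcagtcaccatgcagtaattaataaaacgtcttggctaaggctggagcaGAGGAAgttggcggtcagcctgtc
Ptgs2, chr1:150099781-150100030, plus strand: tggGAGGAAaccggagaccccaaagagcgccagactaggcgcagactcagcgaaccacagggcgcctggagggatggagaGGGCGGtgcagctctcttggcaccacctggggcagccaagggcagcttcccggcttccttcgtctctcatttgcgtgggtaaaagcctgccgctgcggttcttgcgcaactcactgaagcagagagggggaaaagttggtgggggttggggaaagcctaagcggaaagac
The Alox5 window held 1 GC box and 1 ETS-type core, starting 35 and 136 bases before the start site. The Ptgs2 window also held 1 of each, at 170 and 247 bases, and the Ptgs1 window held 1 ETS-type core at 24 bases and no GC box. The letters of a TATA box (TATAAA or TTTATA) were in none of the 3 windows. Of 32851 upstream windows of the same length, 32.7% held a GC box, 23.3% the ETS-type core and 12.4% the TATA letters, so these matches are common and are a description of the sequence, not of a bound site. Ltc4s had none of the 3 motifs, and Ptges had 2 GC boxes and 1 ETS-type core.

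In mm10 coordinates of the GENCODE vM21 annotation, the lipoxygenase-pathway genes were Alox5 at chr6:116410077-116461178 (minus strand), Alox5ap at chr5:149264767-149288153 (plus), Ltc4s at chr11:50236461-50238616 (minus) and Alox15 at chr11:70344152-70352031 (minus). The prostanoid genes were Ptgs1 at chr2:36230426-36252272 (plus), Ptgs2 at chr1:150100031-150108227 (plus), Ptgis at chr2:167191805-167240604 (minus) and Ptges at chr2:30889471-30929863 (minus). Alox5ap, Ltc4s, Ptgs1 and Ptgis each overlap at least 1 annotated gene on the opposite strand, and since the labels and file headers do not say whether strand was used in counting, reads from these overlaps cannot be told apart. Ptges overlaps a processed pseudogene, Gm13400, on its own strand.

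The kept nuclei numbered 26011 in MTZ-after, 17842 in MTZ-simultaneous, 35060 in high-fat and 20554 in untreated, with medians of 825, 1428, 954 and 2028.5 unique molecular identifiers (UMIs) per nucleus and 29282067, 35702708, 45979283 and 63877285 UMIs in all. Pairs of libraries shared 119 to 376 cell barcodes, which was 0.615 to 1.34% of the smaller library. Apoe, disrupted in all 4 groups, stood at 8.90 to 10.8 CPM (UMI counts scaled to 1000000 per library), and Car1, the mouse gene for CA1, at 63.5 to 151 CPM. Neither level checks a label, because the 4 groups share both changes. Clustering gave 27 clusters, and the 8 named classes with at least 200 nuclei in each library were compared. Macrophage-like nuclei numbered 2097, 2651, 7994 and 2041 in MTZ-after, MTZ-simultaneous, high-fat and untreated. Nuclei in clusters left unnamed made up 26.7, 14.6, 53.9 and 15.3% of the same libraries. Nuclei of neighbouring tissue also differed: mesothelial-like nuclei numbered 515, 2879, 63 and 1189, and 4053 adrenal cortex-like nuclei were all in MTZ-after. Because RNA released from broken cells is counted in every droplet, the T, NK and B cell-like nuclei, called lymphocyte-like below, were used as a background for each gene: none of the 8 genes is used as a marker of those cells. Whether lymphocytes make these transcripts themselves was not tested, so their level is a reference and not a floor. Alox5ap, for example, was highest of the 8 classes in B cell-like nuclei of MTZ-after (27.9 CPM, 6 counts) and T or NK-like nuclei of high-fat (15.6 CPM, 9 counts). Background below means this level, and a gene not above it may still be present.

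Over all nuclei the lipoxygenase-pathway genes were highest in the MTZ-simultaneous library, and the difference was largest for Alox15. Alox15 stood at 7.10 CPM (208 counts, interval 6.17 to 8.14) in MTZ-after, 32.1 CPM (1145 counts, 30.2 to 34.0) in MTZ-simultaneous, 3.00 CPM (138 counts, 2.52 to 3.55) in high-fat and 2.29 CPM (146 counts, 1.93 to 2.69) in untreated. The intervals of MTZ-after and MTZ-simultaneous overlap neither each other nor those of the other 2 libraries. Ltc4s stood at 7.99, 20.2, 6.52 and 11.6 CPM in MTZ-after, MTZ-simultaneous, high-fat and untreated, so that high-fat was the lowest library and MTZ-simultaneous the highest. Alox5, which makes the precursor used by Ltc4s, stood at 5.98, 8.65, 4.37 and 4.05 CPM in the same order of libraries. Its helper Alox5ap stood at 12.1, 17.1, 11.3 and 7.40 CPM. For both of these genes the MTZ-simultaneous interval (7.72 to 9.68 CPM for Alox5, 15.8 to 18.6 CPM for Alox5ap) lay above those of the other 3 libraries.

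**Figure D1:**
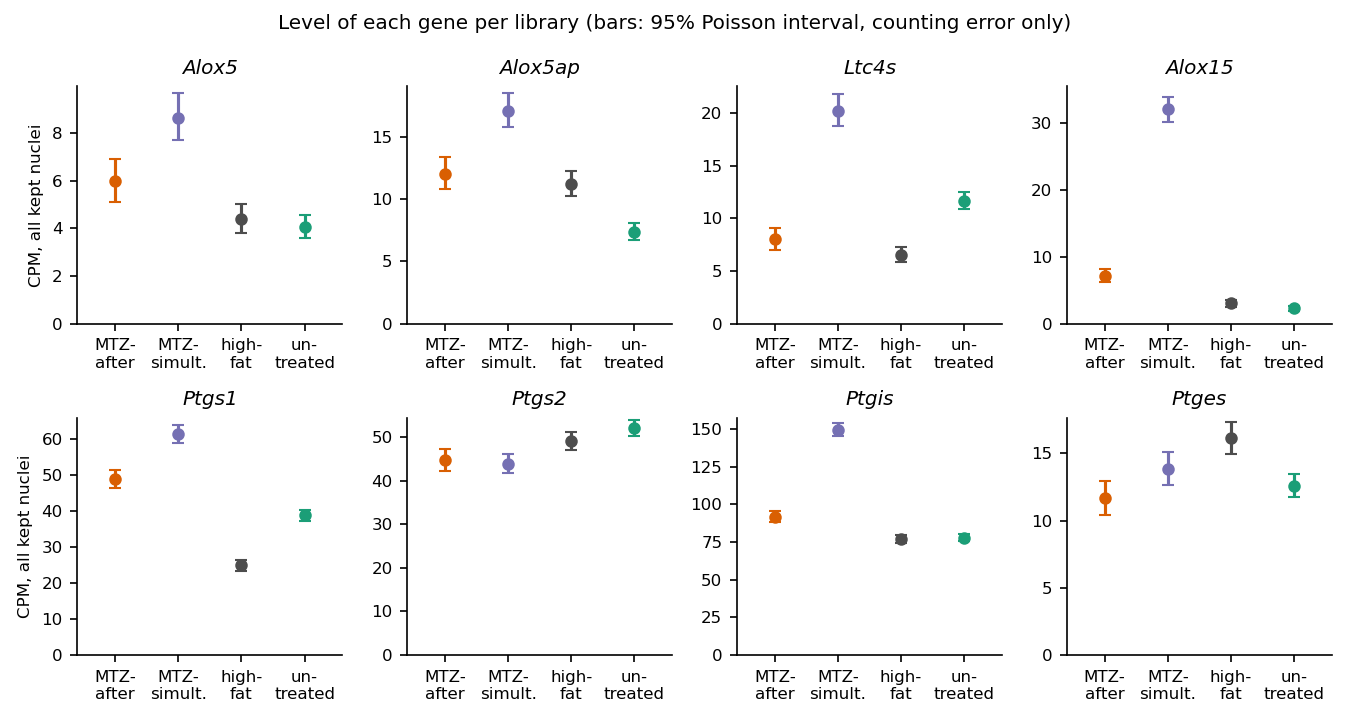
Level of each gene in CPM over all kept nuclei (vertical axis) in the 4 libraries (horizontal axis), 1 point per library with its 95% Poisson interval. Alox15 is at 32.1 CPM in MTZ-simultaneous against 3.00 CPM in high-fat, while Ptgs2 stays between 43.8 and 52.1 CPM in all 4 libraries.

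Among the prostanoid genes, the 2 cyclooxygenases did not move together. Ptgs1, the constitutive form, stood at 48.8 CPM in MTZ-after, 61.2 CPM in MTZ-simultaneous, 24.8 CPM in high-fat and 38.8 CPM in untreated. None of these 4 intervals overlap, and high-fat was the lowest. Ptgs2, the inducible form, stood at 44.7, 43.8, 49.1 and 52.1 CPM in the same libraries and differed least of the 8 genes between libraries. Ptgis stood at 91.9, 149.7, 76.9 and 78.0 CPM, with high-fat and untreated overlapping within their intervals. Ptges stood at 11.6, 13.8, 16.1 and 12.6 CPM and was the one gene of the 8 that was highest in high-fat.

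A difference counted as a call where the CPM of 2 libraries stood at least 2-fold apart and the higher library held at least 50 counts of the gene. In MTZ-after against high-fat, over all nuclei, 1 of the 8 genes was called, Alox15, with a ratio of 2.37 (1.90 to 2.96), where 13.6% of 16474 genes were called higher and 2.54% lower. Just outside the call, Ptgs1 had a ratio of 1.96 (1.81 to 2.12). In MTZ-simultaneous against high-fat, 3 of 8 were called higher and none lower, where 7.97% of 16166 genes were called higher and 2.42% lower: Alox15 at 10.7 (8.95 to 12.8), Ltc4s at 3.10 (2.71 to 3.56) and Ptgs1 at 2.47 (2.29 to 2.65). Just outside were Alox5 at 1.98 (1.65 to 2.38) and Ptgis at 1.95 (1.87 to 2.03). In high-fat against untreated, none of the 8 was called, where 6.45% of 16449 genes were called higher and 7.27% lower. The ratios nearest to a call were 0.560 (0.488 to 0.641) for Ltc4s and 0.641 (0.597 to 0.687) for Ptgs1. The 2 drug comparisons share the high-fat library. Scaling by trimmed mean of M-values (TMM) factors moves every log2 ratio over all nuclei by -0.13, and it changed none of these 3 counts. The median log2 ratio of the 8 genes was 0.28, 0.97 and 0.04 in the 3 comparisons, beside medians of 0.04, 0.10 and 0.10 over all genes with 50 counts. Over all nuclei, a change in the number of nuclei of a type cannot be told apart from a change within them, so the classes are described next.

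**Figure D2:**
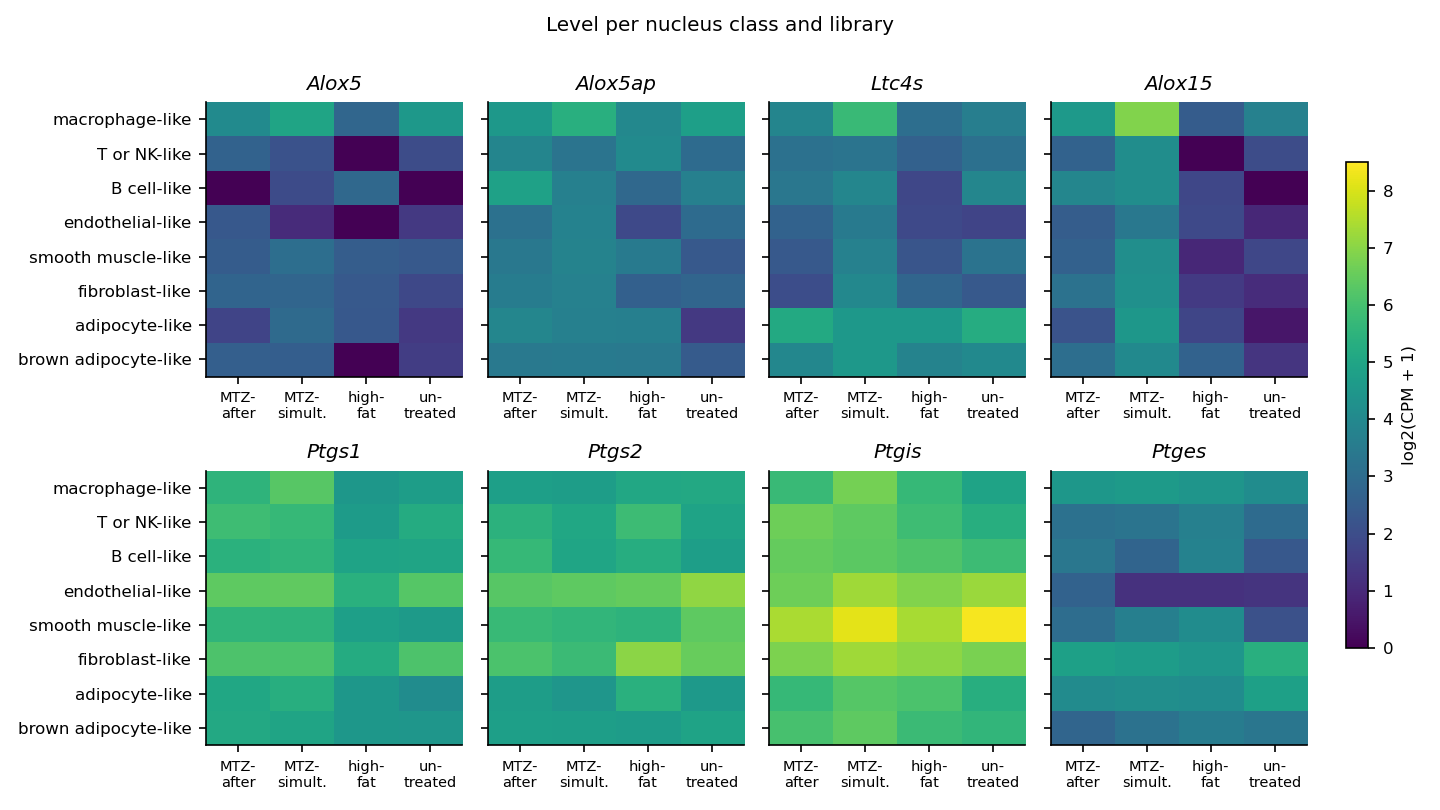
Level of each gene as log2(CPM + 1) (colour) in 8 classes of nuclei (rows) and the 4 libraries (columns). Alox15 is brightest in macrophage-like nuclei of MTZ-simultaneous (118 CPM), Ltc4s is bright in adipocyte-like nuclei of all 4 libraries (22.3 to 37.5 CPM), and Ptgis is brightest in smooth muscle-like nuclei of all 4.

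Among the 8 classes, Alox5 was highest in macrophage-like nuclei in MTZ-after (15.7 CPM), MTZ-simultaneous (29.99 CPM) and untreated (22.4 CPM). In high-fat those nuclei held 5.92 CPM, next to 6.36 CPM (5 counts) in B cell-like nuclei. Within the macrophage-like nuclei the level differed between clusters. The resident macrophage-like cluster, which carried 6 of 8 listed resident markers including Cd163, F13a1 and Mrc1, and 7 monocyte markers, held 21.9, 31.2, 37.6 and 58.0 CPM of Alox5 in MTZ-after, MTZ-simultaneous, high-fat and untreated. The cavity-type cluster, with 6 of 8 markers of serous-cavity macrophages and Vmn2r26 at its head, held 52.4, 73.1, 49.2 and 99.8 CPM, the high-fat value from 2 counts. Of 12 general macrophage markers it carried 3, the fewest that the naming rule allows. The resident cluster carried 6 of them, and the foamy clusters 8 and 5. The foamy macrophage-like clusters, with Gpnmb, Mmp12 and Atp6v0d2, held 5.63, 6.89, 3.72 and 2.04 CPM, and lymphocyte-like nuclei 3.41, 3.02, 3.67 and 1.97 CPM. In each library the interval of the ratio between foamy and lymphocyte-like nuclei included 1, so Alox5 was not detectable above background in foamy nuclei at this depth. The lymphocyte-like values rest on 2, 5, 5 and 3 counts, and the intervals are wide (0.315 to 16.3 in MTZ-after). A level above background could therefore be missed.

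Alox5ap was spread more evenly over the macrophage-like clusters. It stood at 25.4, 65.5, 24.6 and 44.7 CPM in the resident cluster of MTZ-after, MTZ-simultaneous, high-fat and untreated. The cavity-type cluster held 21.0, 62.7, 73.8 and 111 CPM, the high-fat value resting on 3 counts and the MTZ-after value on 4. Foamy nuclei held 20.1, 19.6, 13.9 and 15.8 CPM, against 18.7, 10.9, 10.3 and 8.55 CPM in lymphocyte-like nuclei. The ratio of foamy to lymphocyte-like nuclei excluded 1 in MTZ-simultaneous (1.80, 1.04 to 3.27) and untreated (1.85, 1.01 to 3.67), and included it in MTZ-after and high-fat. The 2 foamy clusters differed in untreated: the larger, of 722 nuclei, held 8.44 CPM, close to the lymphocyte-like level, and the smaller, of 282 nuclei, held 49.0 CPM from 35 of the 62 counts.

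Ltc4s differed from its 2 partners in having a second place of high level. The cavity-type cluster held 62.9, 132, 73.8 and 133 CPM in MTZ-after, MTZ-simultaneous, high-fat and untreated, from 12, 192, 3 and 12 counts. Adipocyte-like nuclei held 34.8, 22.3, 22.4 and 37.5 CPM, against 8.52, 12.1, 3.67 and 9.87 CPM in lymphocyte-like nuclei, and the ratio to lymphocyte-like nuclei excluded 1 in all 4 libraries. Adipocyte-like nuclei were the class with the highest Ltc4s in MTZ-after, high-fat and untreated. In MTZ-simultaneous the macrophage-like nuclei were higher, at 52.8 CPM.

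Alox15 was concentrated in the cavity-type cluster in every library. It stood there at 215 CPM (41 counts) in MTZ-after, 365 CPM (530 counts) in MTZ-simultaneous, 394 CPM (16 counts) in high-fat and 754 CPM (68 counts) in untreated. Lymphocyte-like nuclei held 8.52, 16.9, 1.47 and 1.97 CPM in the same libraries. The gene was kept out of the clustering, and it was among the 10 genes with the largest fold in that cluster. After every nucleus was thinned to 500 UMIs, 9.36% (5.44 to 14.7), 14.0% (11.6 to 16.8), 17.1% (6.56 to 33.6) and 20.7% (7.99 to 39.7) of cavity-type nuclei carried an Alox15 UMI, against 0.262, 0.813, 0 and 0.192% of T or NK-like nuclei; without thinning the shares in the cavity-type cluster were 17.0, 34.3, 34.3 and 62.1%, at median depths of 908, 1454, 1044 and 2245 UMIs. No T or NK-like nucleus of high-fat had one among 510, which allows a share of up to 0.588%.

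The number of such nuclei differed between the libraries. Of the 3 comparisons, the interval of the Alox15 ratio within them excluded 1 only in high-fat against untreated. That interval treats every count as independent, though a nucleus can hold several. At equal depth, the shares of these nuclei with an Alox15 UMI, given above, overlapped in their intervals between high-fat and untreated. The cavity-type cluster held 171 nuclei in MTZ-after (0.657% of the library), 705 in MTZ-simultaneous (3.95%), 35 in high-fat (0.0998%) and 29 in untreated (0.141%). Within the cluster, the ratio of Alox15 was 0.546 (0.300 to 1.04) in MTZ-after against high-fat, 0.928 (0.566 to 1.64) in MTZ-simultaneous against high-fat and 0.522 (0.283 to 0.910) in high-fat against untreated; the last of these intervals excludes 1. Mesothelial-like nuclei, which line the serous cavities, also made up 1.98% of the MTZ-after library, 16.1% of MTZ-simultaneous, 0.180% of high-fat and 5.78% of untreated. Their part in the Alox15 difference was not tested. The cluster carried 19.7, 46.3, 11.6 and 46.6% of all Alox15 counts in MTZ-after, MTZ-simultaneous, high-fat and untreated. Its size depended on the clustering: it held 220, 1470, 53 and 55 nuclei at Leiden resolution 2 and 171, 637, 37 and 27 with another seed. With doublet calls kept in, Vmn2r26, Padi4 and Alox15 led a cluster named resident macrophage-like. How the shares of Alox15 counts move with that size was not tested.

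The remaining Alox15 counts of MTZ-simultaneous were spread over all kinds of nuclei. In the other 19 clusters with at least 50 nuclei in that library, Alox15 ranged over 5.79 to 37.4 CPM with a median of 17.1 CPM. In the other 21 such clusters of untreated it ranged over 0 to 5.92 CPM with a median of 0.417 CPM, and in the 17 of high-fat over 0 to 5.93 CPM with a median of 2.55 CPM. Smooth muscle-like nuclei, for example, held 5.19, 17.5, 0.924 and 2.52 CPM in MTZ-after, MTZ-simultaneous, high-fat and untreated, and fibroblast-like nuclei 8.31, 18.4, 1.72 and 1.10 CPM. In MTZ-simultaneous these levels stood at 1.03 (0.667 to 1.65) and 1.09 (0.695 to 1.75) times the lymphocyte-like level, so neither was detectable above the background. The resident cluster of MTZ-simultaneous was above it, at 37.4 CPM and 2.21 (1.31 to 3.76) times the lymphocyte-like level. In smooth muscle-like nuclei of MTZ-simultaneous against high-fat, 2 of 8 genes were called, both higher, where 4.2% of genes were called. They were Alox15 at 18.9 (3.30 to 756), from 84 counts and 1 count, and Ltc4s at 3.32 (1.23 to 12.6), from 59 and 4 counts. Ltc4s in these nuclei of MTZ-simultaneous stood at 1.02 (0.603 to 1.78) times the lymphocyte-like level, so it was not detectable above the background either. The part that free RNA from cavity-type nuclei plays in the all-nuclei ratio was not tested. With the cavity-type cluster left out, the all-nuclei ratio of Alox15 was 2.16 in MTZ-after against high-fat, 6.76 in MTZ-simultaneous against high-fat and 2.17 in high-fat against untreated, the last of which then counted as a call, where 13.8% of genes did.

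**Figure D3:**
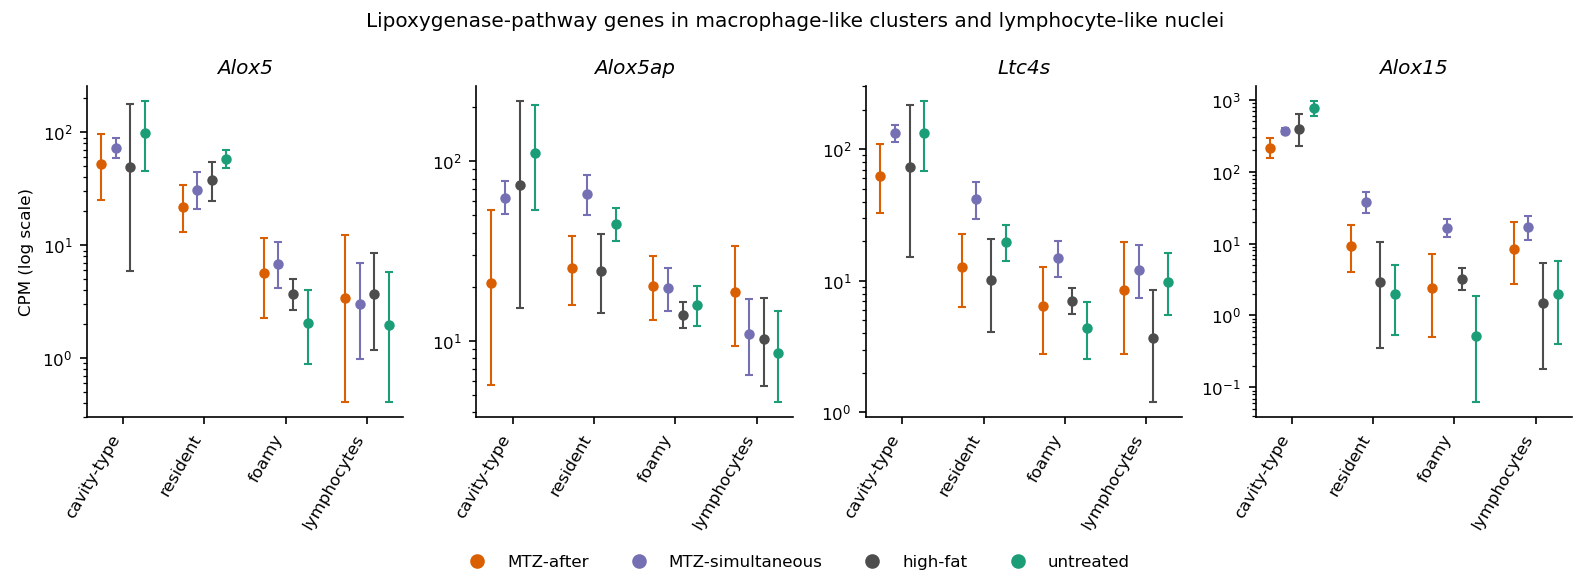
Level in CPM on a log axis of Alox5, Alox5ap, Ltc4s and Alox15 in the cavity-type, resident and foamy macrophage-like clusters and in lymphocyte-like nuclei (T, NK and B cells), 1 point per library with its 95% Poisson interval. Alox15 in the cavity-type cluster lies between 215 and 754 CPM, above every other group shown, and Alox5 falls into high (cavity-type, resident) and low (foamy, lymphocyte-like) groups.

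Compared class by class, the macrophage-like nuclei held more calls than any other of the 8 classes. In MTZ-after against high-fat, 2 of 8 genes were called, both higher, where 2.1% of 12265 genes were called higher and 1.75% lower: Alox15 with 22.6 and 4.62 CPM (ratio 4.90, 3.28 to 7.32) and Ptgs1 with 45.7 and 21.6 CPM (2.11, 1.67 to 2.67). Both Ptgs1 values lay below the lymphocyte-like level of their own library, and that level was itself higher in MTZ-after than in high-fat. In MTZ-simultaneous against high-fat, 6 of 8 were called, all higher, where 2.65% of 12315 genes were called higher and 1.39% lower. Their ratios were 25.7 (19.4 to 34.6) for Alox15, 7.05 (5.52 to 9.10) for Ltc4s, 5.06 (3.78 to 6.84) for Alox5, 3.57 (3.03 to 4.20) for Ptgs1, 2.72 (2.21 to 3.35) for Alox5ap and 2.05 (1.82 to 2.31) for Ptgis. Ptgs2 (0.766) and Ptges (1.17) were not called. In high-fat against untreated, 2 of 8 were called, both lower, where 1.78% of 12305 genes were called lower and 6.66% higher: Alox5 with 5.92 and 22.4 CPM (0.265, 0.195 to 0.357) and Alox15 with 4.62 and 12.3 CPM (0.377, 0.260 to 0.543).

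These class values moved with the make-up of the class. Of the macrophage-like nuclei, foamy clusters held 983 of 2097 in MTZ-after, 1217 of 2651 in MTZ-simultaneous, 7313 of 7994 in high-fat and 1004 of 2041 in untreated. Without the cavity-type cluster no gene was called in MTZ-after against high-fat, where 3.63% of genes were. In MTZ-simultaneous against high-fat, 3 were then called, where 2.97% of genes were: Alox15 (6.82, 4.57 to 10.3), Ltc4s (3.00, 2.18 to 4.13) and Alox5ap (2.16, 1.69 to 2.75), with Alox5 at 2.28 on 49 and 66 counts and Ptgs1 at 1.99. That Alox15 level in MTZ-simultaneous was 1.30 (0.840 to 2.08) times the lymphocyte-like level, so it was not detectable above the background. In high-fat against untreated, Alox5 remained lower (0.272, 0.199 to 0.370), and Ptgis was called higher (2.04, 1.70 to 2.46), where 8.64% of genes were called. The Alox15 ratio turned round to 3.21 (1.34 to 9.29), from 37 counts in high-fat and 6 in untreated.

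Within single clusters the Alox5 difference between high-fat and untreated was smaller or pointed the other way. In the resident cluster the ratio was 0.649 (0.407 to 0.999), from 26 counts in high-fat and 118 in untreated. In the foamy clusters it was 1.82 (0.840 to 4.50), from 40 and 8 counts. The resident cluster held 646 of the macrophage-like nuclei of high-fat and 1008 of those of untreated. In the same cluster, Alox5ap was called higher in MTZ-simultaneous against high-fat (65.5 and 24.6 CPM; 2.66, 1.54 to 4.85), as were Ptgs1 (62.3 and 23.2 CPM; 2.69, 1.53 to 5.01) and Ptgis (92.5 and 43.4 CPM; 2.13, 1.39 to 3.34). These 3 calls among 8 genes stood beside 3.59% of 4594 genes called. Lymphocyte-like nuclei of MTZ-simultaneous and high-fat held 48.3 and 27.2 CPM of Ptgs1 and 81.5 and 65.4 CPM of Ptgis, so both genes also differed in the background, and the resident cluster was not above it for either gene.

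**Figure D4:**
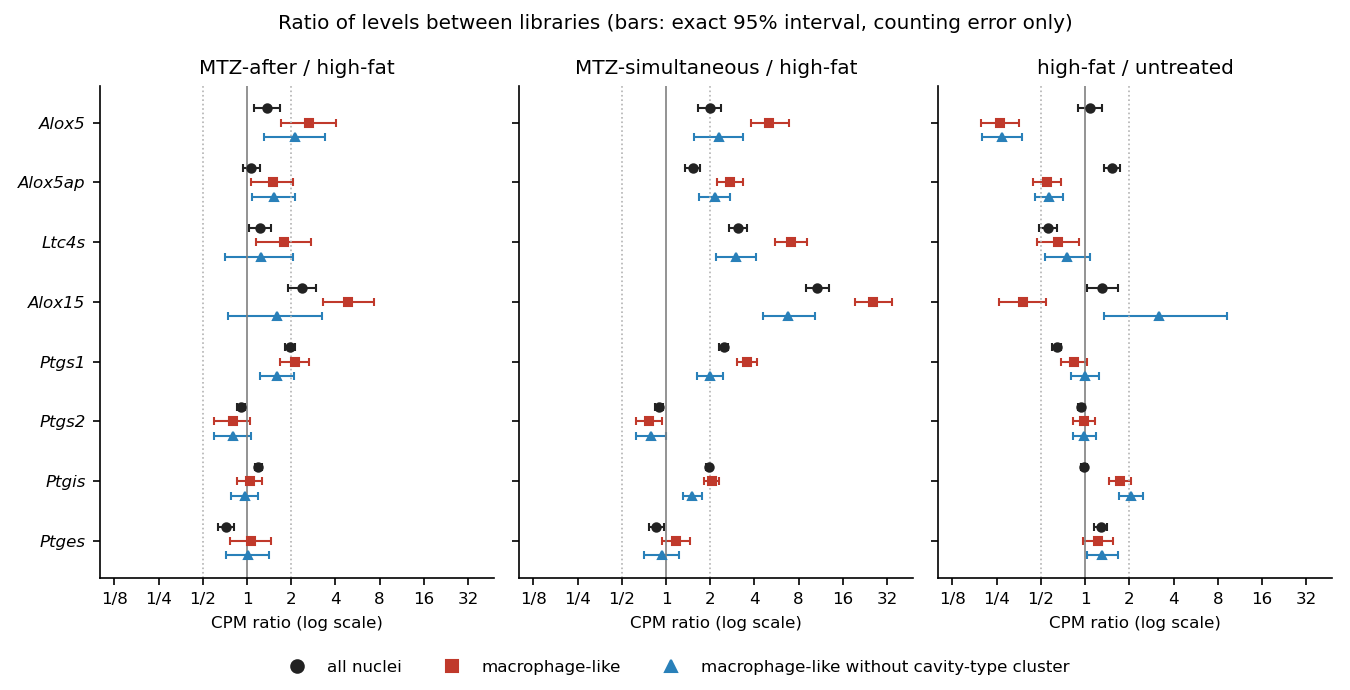
Ratio of CPM between 2 libraries on a log axis for each gene, with exact 95% intervals, over all nuclei (circles), macrophage-like nuclei (squares) and macrophage-like nuclei without the cavity-type cluster (triangles). For Alox15 in MTZ-simultaneous against high-fat the 3 ratios are 10.7, 25.7 and 6.82, and dotted lines mark the 2-fold limits.

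Ptgs1 was found in several kinds of nuclei at like levels, with the largest values in the cavity-type cluster and in one endothelial-like cluster. The cavity-type cluster held 173, 166, 123 and 321 CPM in MTZ-after, MTZ-simultaneous, high-fat and untreated. Endothelial-like nuclei held 82.7, 85.9, 41.3 and 75.7 CPM, and one of their clusters, led by Adarb2, Dach2 and Hdc, held 126, 97.6, 163 and 178 CPM, the high-fat value from 7 counts. Mesothelial-like nuclei held 75.9, 83.6, 38.6 and 91.2 CPM, and fibroblast-like nuclei 69.1, 67.0, 36.4 and 68.7 CPM. The unnamed cluster led by the platelet gene Ppbp held 67.4, 83.4, 44.4 and 84.9 CPM, and lymphatic endothelial-like nuclei 59.1, 51.6, 54.9 and 94.5 CPM, the high-fat value from 11 counts. Lymphocyte-like nuclei held 51.1, 48.3, 27.2 and 34.2 CPM, and the ratio to them excluded 1 in endothelial-like nuclei of MTZ-after (1.62, lower bound 1.08), MTZ-simultaneous (1.78, 1.40 to 2.29) and untreated (2.21, 1.66 to 3.00) and included it in high-fat (1.52, 0.913 to 2.52). Foamy nuclei, at 27.4, 35.2, 21.1 and 16.6 CPM, lay below lymphocyte-like nuclei in all 4 libraries, with an interval of the ratio that included 1 in high-fat.

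Ptgs1 also differed between libraries in some classes of the vessel wall. In endothelial-like nuclei it was called higher in MTZ-after against high-fat, just past the limit (82.7 and 41.3 CPM, interval of the ratio 1.34 to 3.07), the one call among the 8 genes where 7.06% of 5507 genes were called. It was also called there in MTZ-simultaneous against high-fat (2.08, 1.44 to 3.10), together with Alox5ap (12.5 and 2.67 CPM, 58 and 2 counts; 4.70, 1.25 to 39.8), where 6.51% of 9449 genes were called. That Alox5ap level in MTZ-simultaneous was 1.15 (0.671 to 2.08) times the lymphocyte-like level, and the high-fat level 0.259 (0.0286 to 1.13) times, so neither was detectable above the background. In high-fat against untreated, Alox5ap was the one gene called there, lower on 2 and 53 counts (0.388, 0.0458 to 1.47), where 5.56% of genes were. High-fat held 254 endothelial-like nuclei and 31 Ptgs1 counts in them, so the width of these intervals comes from that library. In fibroblast-like nuclei the ratios of Ptgs1 were 1.90 (1.47 to 2.45) and 1.84 (1.46 to 2.33) in the same 2 comparisons, and 0.530 (0.423 to 0.659) in high-fat against untreated. In smooth muscle-like nuclei they were 1.73 (1.15 to 2.68), 1.67 (1.13 to 2.55) and 1.14 (0.654 to 1.99) in the 3 comparisons, the last with an interval that includes 1. The lymphocyte-like level of high-fat was also the lowest of the 4 libraries, and its part in these ratios was not tested.

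Ptgs2 was highest in endothelial-like and fibroblast-like nuclei, but not in every cluster of them. Endothelial-like nuclei held 77.4, 83.3, 89.4 and 135 CPM in MTZ-after, MTZ-simultaneous, high-fat and untreated, and fibroblast-like nuclei 67.8, 54.0, 129 and 91.2 CPM. The endothelial-like cluster led by Lrrc3b held 99.4, 84.2, 98.5 and 160 CPM. That led by Adarb2 held 43.0, 93.8, 46.4 and 41.4 CPM, from 17, 25, 2 and 35 counts. That led by Ccdc85a held 22.2, 0, 0 and 12.3 CPM, from 3, 0, 0 and 8 counts. Lymphocyte-like nuclei held 46.0, 31.4, 45.5 and 28.3 CPM. Foamy macrophage-like nuclei held 27.4, 23.6, 33.4 and 36.0 CPM, and the upper bound of their ratio to lymphocyte-like nuclei was at most 1.84, in untreated. One fibroblast-like cluster, led by Cemip, Grin2a, Mmp13 and Col1a1, held 281, 108, 212 and 266 CPM, and the other large one held 36.2, 43.7, 44.2 and 74.1 CPM.

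In fibroblast-like nuclei Ptgs2 was called lower in MTZ-simultaneous against high-fat (0.420, 0.353 to 0.498), next to Alox15 (10.7, 4.39 to 34.0) and Ltc4s (14.6 and 5.84 CPM, interval of the ratio 1.43 to 4.58) called higher, 3 of 8 genes where 4.6% of 9660 genes were called. Alox15 and Ltc4s were not detectable above the lymphocyte-like level there in MTZ-simultaneous (for Ltc4s 1.21, 0.715 to 2.12). The Cemip-led cluster held 197, 246, 1045 and 88 nuclei in MTZ-after, MTZ-simultaneous, high-fat and untreated, and the other large cluster 1767, 1725, 1143 and 2184. Within the Cemip-led cluster the ratio of Ptgs2 in MTZ-simultaneous against high-fat was 0.508 (0.384 to 0.662), just outside a call, and within the other it was 0.987 (0.730 to 1.35). In MTZ-after against high-fat the class ratio was 0.527 (0.434 to 0.637), while the ratios within the 2 clusters were 1.32 (1.03 to 1.69) and 0.817 (0.575 to 1.16). An unnamed cluster, led by Grin2a, St18 and Cemip, held 104 CPM of Ptgs2 in MTZ-simultaneous and 44.4 CPM in high-fat (2.33, 1.78 to 3.02), from 321 and 7813 nuclei, where 5.33% of 12098 genes were called.

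**Figure D5:**
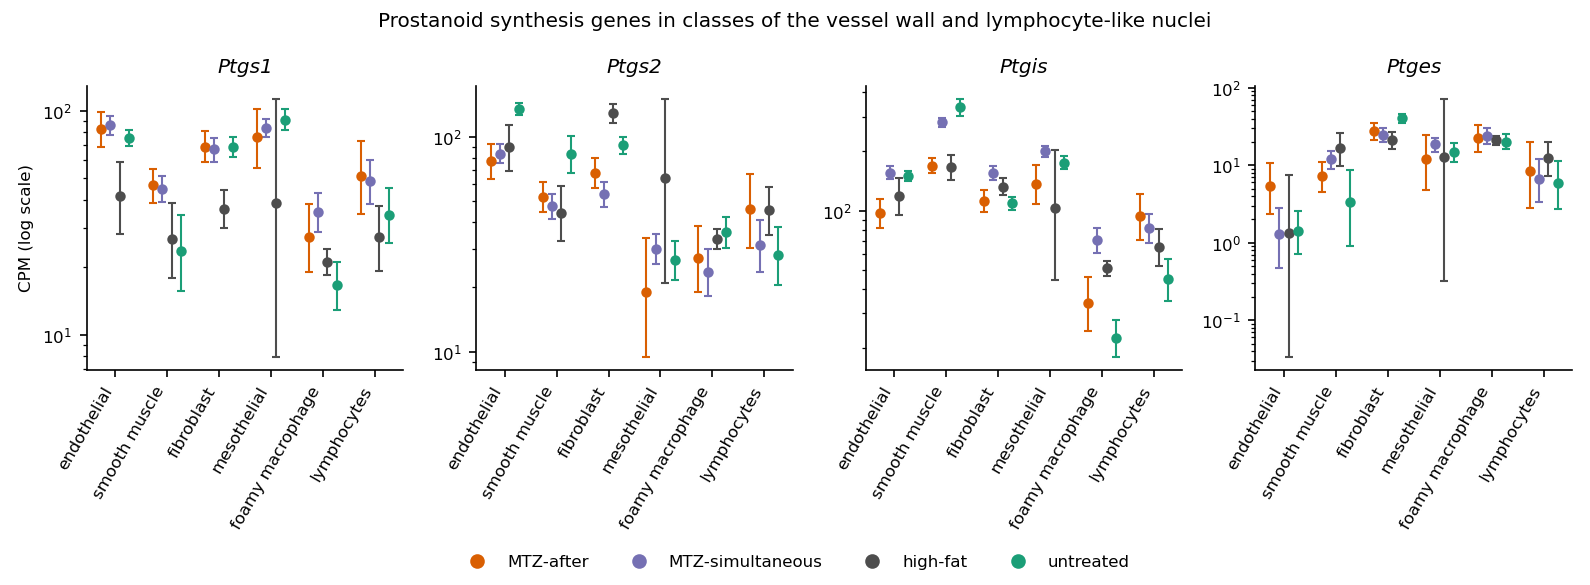
Level in CPM on a log axis of Ptgs1, Ptgs2, Ptgis and Ptges in endothelial-, smooth muscle-, fibroblast- and mesothelial-like nuclei, foamy macrophage-like nuclei and lymphocyte-like nuclei, 1 point per library with its 95% Poisson interval. Ptgis is highest in smooth muscle-like nuclei of MTZ-simultaneous (281 CPM) and untreated (335 CPM), and Ptges is lowest in endothelial-like nuclei (1.30 to 5.38 CPM); the mesothelial-like points of high-fat rest on 63 nuclei.

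Among the 8 compared classes, smooth muscle-like nuclei had the highest Ptgis in every library: 169, 281, 166 and 335 CPM in MTZ-after, MTZ-simultaneous, high-fat and untreated. Lymphocyte-like nuclei held 93.7, 81.5, 65.4 and 44.7 CPM, and the ratio to them was 1.80 (1.36 to 2.43), 3.44 (2.88 to 4.14), 2.54 (1.96 to 3.32) and 7.49 (5.78 to 9.84). Endothelial-like nuclei held 96.9, 156, 119 and 149 CPM, and fibroblast-like nuclei 112, 156, 132 and 109 CPM. In untreated, the endothelial-like cluster led by Lrrc3b held 173 CPM, and those led by Adarb2 and Ccdc85a held 43.8 and 55.4 CPM. Single clusters of classes other than smooth muscle reached like levels: the Cemip-led fibroblast-like cluster held 183, 239, 172 and 270 CPM, and the cavity-type cluster 99.6, 176, 172 and 344 CPM, the high-fat value from 7 counts. In high-fat against untreated, Ptgis was called lower in smooth muscle-like nuclei (0.496, 0.414 to 0.593), from 753 and 530 nuclei, the one call among the 8 genes where 7.22% of 5094 genes were called. In MTZ-simultaneous against high-fat the ratio there was 1.69 (1.44 to 1.98) and in MTZ-after against high-fat 1.02 (0.855 to 1.21). In foamy nuclei, by contrast, Ptgis was called higher in high-fat against untreated, with 50.9 and 22.5 CPM (2.26, 1.80 to 2.87; 10.8% of genes called), but both values lay below the lymphocyte-like level of their own library.

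Ptges had the clearest difference between wall cells. Fibroblast-like nuclei held 27.5, 24.8, 21.0 and 40.2 CPM in MTZ-after, MTZ-simultaneous, high-fat and untreated, the highest of the 8 classes in each library. In MTZ-simultaneous and high-fat the macrophage-like nuclei came next at 23.99 and 20.5 CPM, within the counting intervals of the fibroblast-like values. The fibroblast-like clusters differed. The Cemip-led one held 33.8, 1.58, 6.84 and 6.14 CPM in the same order of libraries, from 10, 1, 10 and 3 counts, and the other held 26.6, 29.3, 35.3 and 43.6 CPM. Endothelial-like nuclei held 5.38, 1.30, 1.33 and 1.43 CPM, from 8, 6, 1 and 11 counts, the lowest of the 8 classes in each library. Lymphocyte-like nuclei held 8.52, 6.64, 12.5 and 5.92 CPM. Foamy macrophage-like nuclei held 22.5, 23.9, 21.0 and 20.2 CPM, with ratios between libraries of 1.07, 1.14 and 1.04 in the 3 comparisons, and the interval of their ratio to lymphocyte-like nuclei lay above 1 in all 4. For none of the other 7 genes did that interval lie above 1 in foamy nuclei of every library. It was not called in any of the 3 comparisons over all nuclei or in macrophage-like nuclei.

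Few nuclei carried more than 1 of these transcripts at this depth. After thinning to 500 UMIs, 132 of 2651 macrophage-like nuclei of MTZ-simultaneous carried Alox15, and 5.30% (2.16 to 10.6) of them also carried Ptgs1, against 4.01% (3.28 to 4.85) of the nuclei without Alox15. For Alox5 together with Ltc4s the shares were 9.30% (2.59 to 22.1) of 43 nuclei with Alox5 and 2.42% (1.86 to 3.08) of 2608 without. Alox5 together with its partner Alox5ap was found in 0 of the 43 (interval 0 to 8.22%), against 2.22% (1.69 to 2.87) of the 2608. The pair was likewise in 0 of 13 nuclei with Alox5 in MTZ-after (0 to 24.7%) and 0 of 24 in high-fat (0 to 14.2%). In untreated, Alox5ap was found in 11.4% (3.20 to 26.7) of 35 nuclei with Alox5 and 1.15% (0.728 to 1.72) of 2006 without. The untreated interval for nuclei with Alox5 overlaps those of the other libraries. In MTZ-simultaneous, the shares for Alox5ap together with Ltc4s were 10.3% (3.89 to 21.2) of 58 and 2.35% (1.80 to 3.01) of 2593. Nuclei of different clusters enter these shares together: without the cavity-type cluster, Ltc4s was found in 2.86% (0.0723 to 14.9) of 35 nuclei with Alox5ap and in 1.15% (0.723 to 1.74) of 1911 without, and in 0 of 13 nuclei with Alox5 and 1.19% (0.756 to 1.78) of 1933 without.

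Around the 8 genes, 82 further genes of the pathway were listed by role, and 79 of them were in the matrices. Their calls over all nuclei stand beside the shares given above for all genes with 50 counts: 13.6% higher and 2.54% lower in MTZ-after against high-fat, 7.97% and 2.42% in MTZ-simultaneous against high-fat, and 6.45% and 7.27% in high-fat against untreated. Of 18 genes for release and reacylation of arachidonate, none was called in MTZ-after against high-fat or high-fat against untreated over all nuclei, and 2 were called higher in MTZ-simultaneous against high-fat: Faah, which hydrolyses anandamide, with 5.41 and 1.87 CPM (2.89, 2.23 to 3.77), and the phospholipase gene Pla2g4f with 3.28 and 1.33 CPM (2.47, 1.80 to 3.42). None of the 18 was called in macrophage-like nuclei in any comparison. As 15 of the 18 had at least 50 counts, the 2 calls in MTZ-simultaneous against high-fat are near the share over all genes.

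Of 13 other lipoxygenase and leukotriene genes, Alox12, the platelet-type lipoxygenase, was called higher in MTZ-after against high-fat (11.7 and 1.81 CPM; 6.49, 5.09 to 8.35). An unnamed cluster led by the platelet gene Ppbp held 4700 nuclei in MTZ-after and 859 in high-fat; its part in that ratio was not tested. Dpep2, a dipeptidase that trims leukotriene D4, was called lower in MTZ-after against high-fat (5.16 and 10.7 CPM; 0.481, 0.398 to 0.578) and higher in high-fat against untreated (10.7 and 5.13 CPM; 2.09, 1.81 to 2.41). In macrophage-like nuclei Dpep2 was called higher in MTZ-simultaneous against high-fat (42.2 and 18.4 CPM; 2.30, 1.89 to 2.79), and Mgst3, a membrane glutathione transferase, lower in MTZ-after against high-fat on 9 and 107 counts (0.420, 0.187 to 0.827).

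Of 10 other prostanoid synthase genes, Hpgds and Ptgds, which make prostaglandin D2, were called in all 3 comparisons over all nuclei and in opposite directions. Hpgds, the haematopoietic synthase, stood at 44.6 CPM in MTZ-after, 45.7 CPM in MTZ-simultaneous, 113 CPM in high-fat and 47.1 CPM in untreated. Ptgds, the lipocalin-type synthase, stood at 2.36, 1.60, 0.609 and 5.39 CPM in the same libraries. Neither was called in macrophage-like nuclei.

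Of the cytochrome P450 and epoxide hydrolase genes listed, 12 of 13 were in the matrices. Cyp2c29, an epoxygenase of liver, was called higher in MTZ-after against high-fat (19.4 and 0.196 CPM, 568 and 9 counts; 99.1, 51.8 to 218), where hepatocyte-like nuclei numbered 766 and 5. Ephx1, the microsomal epoxide hydrolase, was called higher in MTZ-simultaneous against high-fat (64.6 and 31.7 CPM; 2.04, 1.91 to 2.18). Ephx2, the soluble epoxide hydrolase, was called lower in high-fat against untreated (84.5 and 169 CPM; 0.498, 0.480 to 0.517), as was Cyp2u1 (0.395, 0.344 to 0.452).

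Of 7 genes for inactivation and transport in the matrices, Hpgd, the dehydrogenase that starts prostaglandin breakdown, stood at 15.3, 18.3, 5.81 and 28.0 CPM in MTZ-after, MTZ-simultaneous, high-fat and untreated over all nuclei. It was called higher in MTZ-after against high-fat (2.63, 2.26 to 3.08) and in MTZ-simultaneous against high-fat (3.15, 2.73 to 3.65) and lower in high-fat against untreated (0.208, 0.182 to 0.236). In macrophage-like nuclei it was likewise higher in MTZ-simultaneous against high-fat (20.3 and 6.01 CPM; 3.38, 2.47 to 4.65) and lower in high-fat against untreated (6.01 and 37.4 CPM; 0.161, 0.121 to 0.211). Slco2a1, a prostaglandin transporter, was called higher in macrophage-like nuclei in high-fat against untreated (191 and 64.1 CPM; 2.98, 2.68 to 3.33). Ptgr2, a reductase of prostaglandin metabolites, was called lower over all nuclei in the same comparison (0.437, 0.414 to 0.462).

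Of 19 receptor genes, all in the matrices, 2 were called in MTZ-after against high-fat over all nuclei (Tbxa2r, the thromboxane receptor, at 2.26, and Gpr17 at 3.78, both higher), 2 in MTZ-simultaneous against high-fat (Ptgir, the prostacyclin receptor, higher at 2.06, and Ptger3, a prostaglandin E2 receptor, lower at 0.470) and 1 in high-fat against untreated (Ptger2, another prostaglandin E2 receptor, higher at 2.49). Of the 19, 13 or 14 had at least 50 counts, so these counts are near or under the shares over all genes. In macrophage-like nuclei, Ptger3 was lower in MTZ-simultaneous against high-fat (9.29 and 21.9 CPM; 0.423, 0.304 to 0.578). Cysltr1, the receptor for cysteinyl leukotrienes, was lower in high-fat against untreated (17.9 and 47.5 CPM; 0.376, 0.312 to 0.451), as was Gpr132 (0.416, 0.353 to 0.491). Those last 3 values, like those of the 8 genes, compare classes with different shares of foamy nuclei.

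Over the 32 profiles given by 8 classes in 4 libraries, the genes with the most similar profile were found among 13629 genes by Pearson's r of log2(CPM + 1). The profiles share libraries and differ in depth, so these values describe likeness and nothing more. Alox15 was most like Serpinb2 (r = 0.886), Retnla (0.873) and Slpi (0.848), and Alox5ap was most like Pilra (0.828), Pde1b (0.826) and Itgam (0.809). Alox5 was most like C5ar1 (0.784), Bri3 (0.776) and Ms4a8a (0.771), and Ltc4s most like Nmnat3 (0.800), Slc27a1 (0.800) and Acp6 (0.757). Ptgs1 was most like Thbd (0.825), Vegfc (0.794) and Arhgap28 (0.785), and Ptgs2 most like Rhoj (0.864), Ntn1 (0.862) and Cyth3 (0.853). Ptgis was most like Eml1 (0.951), Fhl1 (0.947) and Pls3 (0.944), and Ptges most like Lrp1 (0.880), Pid1 (0.846) and Xdh (0.835). Among the 8 genes themselves, the highest r was 0.639 between Ptgs2 and Ptgis, followed by 0.610 between Alox5ap and Alox15, and the lowest was -0.693 between Ltc4s and Ptgs2.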

How the data were processed

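Single-nucleus libraries (10x 3′ chemistry) of aortic tissue were analysed, 1 per group. The deposited matrices hold raw UMI counts per gene and nucleus, written by Cell Ranger 7.0.1 per the file headers; Cell Ranger, STAR and mm10 are named in the submitters' processing notes. Whether introns or strand were counted is not stated there. Nuclei with at least 300 genes and at most 10% mitochondrial counts were kept. Scrublet's automatic threshold marked 0 to 2 nuclei per library, which is not a working call, so the highest 8% of doublet scores were removed, which left 99467 nuclei.

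Clustering (scanpy 1.11.5, 2000 variable genes without the 8 genes and the listed pathway genes, 30 components, 20 neighbours, Leiden resolution 1, no integration) gave 27 clusters. A cluster was named "-like" when at least 3 listed markers stood 2-fold above the other nuclei; names are rebuilt here and may differ from the study's. Counts were summed per class and library. CPM have exact Poisson intervals, ratios exact conditional intervals and shares Clopper-Pearson intervals, at 95%. No test across samples was possible with 1 library per group. PCR duplicates are removed by UMIs, but nuclei of 1 library share its preparation. The script was checked on simulated counts. TMM factors came from edgeR 4.0.16, used for scaling only.

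Genes named from the pathway lists were those called over all nuclei or in macrophage-like nuclei, at most the 4 per list and comparison whose interval bound lay farthest from 1. Genes most like a member were the 3 with the highest Pearson's r over classes and libraries, among genes with at least 500 counts. The members and lists were chosen with earlier results of these data known. The choice to leave out the cavity-type cluster, and the cluster-mix weighting, were made after seeing the clusters. Gene positions are from GENCODE vM21, in which 99.6% of the gene identifiers were found. Upstream sequences were found for 5 of the 8 genes.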

Additional observations from a re-analysis of the deposited data

How the results depend on the processing

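With 1.5-fold in place of 2-fold as the limit, 2 genes were called over all nuclei in MTZ-after against high-fat (28.6% of all genes), 6 in MTZ-simultaneous against high-fat (23.4%) and 3 in high-fat against untreated (31.3%), and 5 in macrophage-like nuclei in high-fat against untreated (20.9%). With surrounding tissue left out, the counts over all nuclei were 2, 5 and 1 in the 3 comparisons, beside 11.1, 9.48 and 7.51% of all genes. In MTZ-after against high-fat over all nuclei, weighting by the class mix of high-fat gave 2 calls (11.6% of all genes) and weighting by its cluster mix gave 0 (11% of all genes). In macrophage-like nuclei of that comparison, equal weight for each nucleus gave 1 call (4.39%) and thinning to 500 UMIs gave 1 (5.59%), while a stricter filter on nuclei gave 0 (3.16%) and leaving out the cavity-type cluster gave 0 (3.63%). Leaving that cluster out gave 3 calls in macrophage-like nuclei in MTZ-simultaneous against high-fat (2.97%), and 1 over all nuclei in high-fat against untreated (13.8%), where thinning also gave 1 (13.4%). Equal weight gave 1 call in macrophage-like nuclei in high-fat against untreated (7.48%). The Alox15 ratio in macrophage-like nuclei, high-fat against untreated, turned round to 3.68 under the stricter filter and to 3.21 without the cavity-type cluster. These 2 alternatives are not independent. Under the stricter filter the nuclei were clustered anew, and the cluster led by Vmn2r26, Padi4 and Alox15 was left unnamed. It held 366, 2320, 80 and 88 nuclei in MTZ-after, MTZ-simultaneous, high-fat and untreated, which lay outside the macrophage-like class. Over 13 alternatives, the all-nuclei ratio of Alox15 ranged over 1.19 to 2.81 in MTZ-after and 6.41 to 14.6 in MTZ-simultaneous against high-fat, and over 11 alternatives the macrophage-like ratio in MTZ-simultaneous against high-fat ranged over 6.05 to 29.4. The value of 6.05 came from the stricter filter. TMM scaling left 5 of the 6 calls in macrophage-like nuclei in MTZ-simultaneous against high-fat, without Ptgis. Ratios within the cavity-type cluster rest on 35 nuclei in high-fat and 29 in untreated, and those in endothelial-like nuclei on 254 in high-fat. No paired analysis was possible because each group had 1 library.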

Other observations

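Part of the genes' counts lay in nuclei that no marker list named. One unnamed cluster, led by Nfasc, Ddah1 and Edn1, held 1330 nuclei in MTZ-after, 696 in MTZ-simultaneous, 9737 in high-fat and 297 in untreated. Ptges stood there at 7.44, 3.15, 11.1 and 1.45 CPM in the same libraries, the untreated value from 1 count. Ptgs2 stood there at 68.3, 53.5, 53.6 and 101 CPM, and Ptgis at 74.4, 119.5, 81.7 and 104 CPM.

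Macrophage-like nuclei carried 20.6% of all Alox5 counts in MTZ-after, 50.2% in MTZ-simultaneous, 33.8% in high-fat and 52.1% in untreated, while they made up 8.06, 14.9, 22.8 and 9.93% of the nuclei. Of the Alox15 counts they carried 52 of 208 in MTZ-after, 612 of 1145 in MTZ-simultaneous, 53 of 138 in high-fat and 74 of 146 in untreated.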
